A study of Drosophila melanogaster with 6 samples.

Results

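The 10 genes wor, dpn, mira, pros, insc, pon, SoxN, D, esg and sna mark embryonic neuroblasts or carry out their asymmetric division. They were taken as the probe sets that the platform annotation pairs with exactly one of these symbols, which gave 1 probe set for each of the 10 genes among 18769 probe sets tested. They were followed in whole Drosophila melanogaster embryos of stages 11 to 16, with 3 samples expressing UAS-Sage under tub-Gal4 and 3 wild type samples, all on an Oregon R background. Sage is a basic helix-loop-helix factor of the embryonic salivary gland, Gal4 activates genes placed behind UAS sites, and the tub promoter drives expression in most cells, so the factor was made far outside its own tissue. No sample carrying only the driver or only the transgene was analysed here, and the labels do not say how many embryos were pooled. Embryos of both groups were aged at 25 C and sorted on a COPAS instrument, and the wild type embryos were matched in age.

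Neuroblasts are the stem cells of the insect central nervous system. They leave the neurectoderm and divide unequally, renewing themselves at the apical side and passing determinants to a smaller ganglion mother cell at the basal side, which divides again into neurons or glia. Transcription factors give neuroblasts their identity, while adaptor proteins place the determinants and turn the spindle. In whole embryos, a lower value can come from fewer cells of a type or from less RNA per cell, and the arrays cannot tell these apart.

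On the log2 scale of the deposited values, sage read 12.17, 12.31 and 12.28 on the Sage arrays, against 7.68, 8.08 and 7.40 on the wild type arrays, a 23.1-fold difference (limma adjusted p 7.53e-05). Pearson correlations across all tested probe sets were 0.989 to 0.996 among Sage arrays, 0.975 to 0.994 among wild type arrays and 0.96 to 0.983 between the groups. The gap between 3′ and 5′ probe sets of the control transcripts was wider on the Sage arrays than on the wild type arrays, by a log2 difference of 1.29 in actin, 0.83 in GAPDH and 0.82 in eIF-4a (exact two-sided permutation p 0.1 for each, the least that 3 samples against 3 can give). All 24 polyA spike-in probe sets were lower on the Sage arrays, with a median log2 difference of -1.65, while 6 of 18 hybridisation controls were lower, with a median of 0.08. The part of these differences in control probe sets in the values below was not tested, and where each probe set lies along its transcript was not used here. Separate cultures for the replicates are not stated in the labels, so the p-values rest on the spread among these samples, which may be technical.

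Of the neuroblast genes, 1 was lowered in Sage overexpression, 0 were raised, and 9 did not pass the threshold of a limma adjusted p under 0.05. The gene that fell was D, which encodes the Sox factor Dichaete, and it was 1.79-fold higher in wild type. Over all probe sets 2.88% were called lower and 3.24% higher in Sage overexpression, so 1 of 10 lowered is a count of a single gene. With dim probe sets left out, 9385 remained, of which 4.87% were called lower and 4.98% higher, and D was still the 1 member called. At an unadjusted p under 0.05 there were 2 lower members, D and dpn, and 0 higher ones, while 10.8% of all probe sets were lower and 10.3% higher by that measure. Differences were negative for 8 members and positive for 2, with a median of -0.31, while the median over all probe sets was 0.00 and 49.9% of their differences were negative. The lowest of all member values, 7.31, lay above 5.35, the highest group mean among 70 control probe sets taken to have no fly target.

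**Figure D1:**
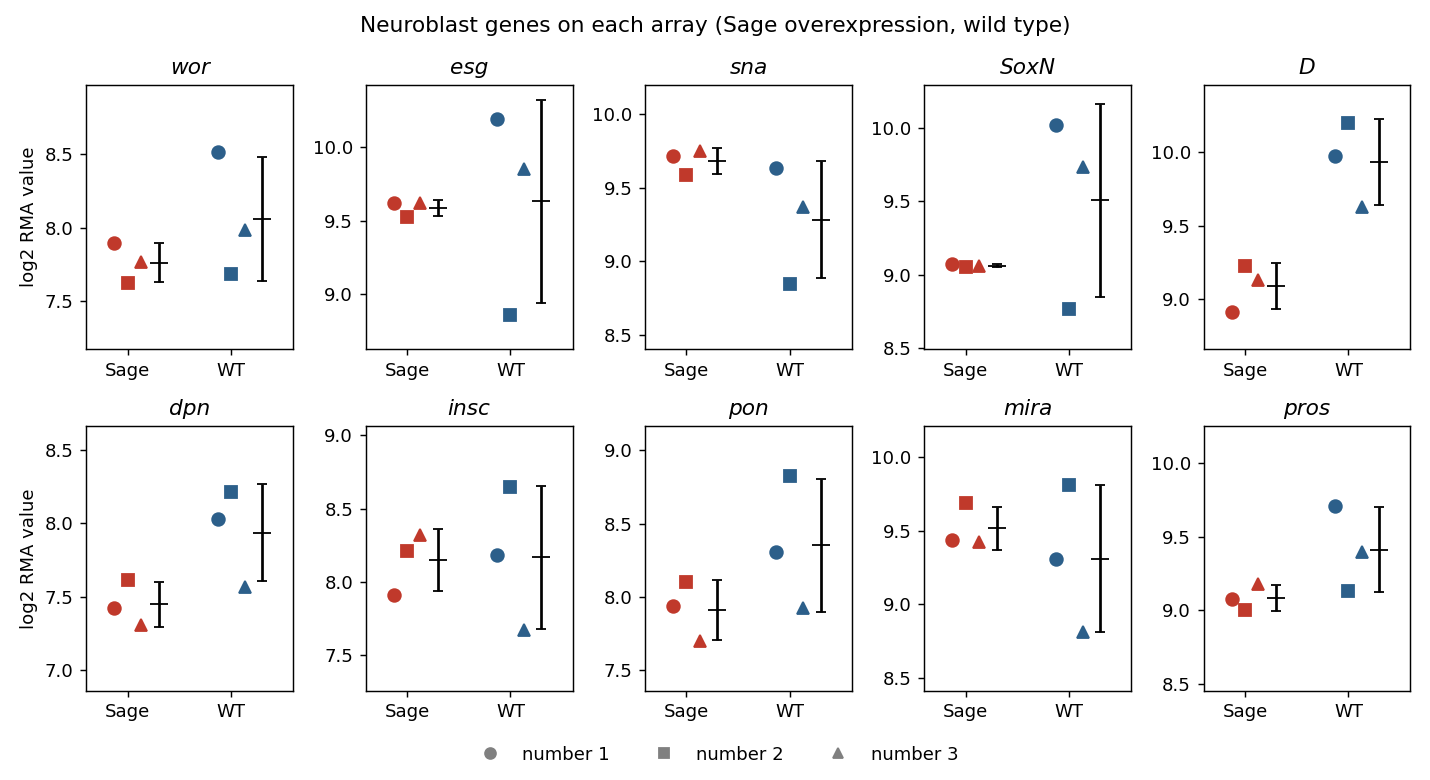
Log2 RMA values of the 10 neuroblast genes, with Sage overexpression at the left and wild type at the right of each panel; markers give the replicate number, and black bars the mean ± SD of 3 arrays. Every panel spans the same height on the log2 scale. The groups are apart for D, and for the other 9 genes they overlap, with wild type arrays spread more widely than Sage arrays.

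The Sox genes were lower in mean on the Sage arrays. D and SoxN encode related HMG-domain factors of the SoxB class, which are expressed in the neurectoderm, act in part redundantly there and are needed for neuroblast formation. D read 8.92, 9.22 and 9.13 on the Sage arrays, against 9.97, 10.20 and 9.63 on the wild type arrays. Every Sage value of D lay below every wild type value, as was the case for 13.6% of all probe sets (14% had every Sage value above). The log2 fold change of D was -0.84 (SE 0.17, 95% interval -1.24 to -0.44, adjusted p 0.0374), and 2.22% of all probe sets had a change as low or lower. The Sage value was below the wild type value of the same number in each case, by log2 differences of -1.06, -0.98 and -0.49. The call on D was lost when any of the Sage arrays was left out (adjusted p 0.132, 0.102 and 0.147 without numbers 1, 2 and 3) and without wild type array 1 (adjusted p 0.1). The fold change itself stayed between -0.996 and -0.71 in these fits.

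SoxN read 9.07, 9.06 and 9.06 on the Sage arrays, against 10.02, 8.77 and 9.73 on the wild type arrays. The Sage values were almost equal, while wild type array 2 fell below them and the other wild type arrays lay well above. With all arrays the log2 fold change was -0.44 (SE 0.31, adjusted p 0.494). Without wild type array 2 it was -0.81 and passed the threshold (adjusted p 0.00832), so a single array decided whether SoxN was called. The log2 ratio of SoxN to D averaged -0.03 ± 0.17 on the Sage arrays and -0.43 ± 0.87 on the wild type arrays (SD, n = 3 each), a difference of 0.40 (exact two-sided permutation p 0.8), and without wild type array 2 that difference turned to -0.11.

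The Snail family genes did not share a direction. wor, esg and sna encode zinc-finger repressors that overlap in neuroblasts, where they act together on asymmetric division; sna also specifies the mesoderm, and esg maintains imaginal cells and acts in the trachea. These 3 genes lie close together in the gene table, where wor and 12 other annotated genes stand between esg and sna. Of those 12 genes 2 were measured, CG15258 and CG4161. Neither was called, with log2 fold changes of 0.02 for CG15258 and -0.08 for CG4161.

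The worniu gene wor, the family member most restricted to neuroblasts, read 7.89, 7.63 and 7.77 on the Sage arrays, against 8.52, 7.68 and 7.98 on the wild type arrays. Wild type array 2 lay within the Sage values, and the log2 fold change was -0.30 (SE 0.21, adjusted p 0.515). The escargot gene esg read 9.62, 9.52 and 9.62 on the Sage arrays, against 10.19, 8.86 and 9.85 on the wild type arrays. Its wild type values enclosed all of its Sage values, and the log2 fold change of -0.05 (SE 0.32, adjusted p 0.96) ran from -0.43 without wild type array 2 to 0.23 without wild type array 1.

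The snail gene sna had the larger of the 2 positive differences. It read 9.71, 9.58 and 9.75 on the Sage arrays, against 9.63, 8.85 and 9.37 on the wild type arrays. The Sage value was higher for each number, but wild type array 1 overlapped the Sage group, and the log2 fold change was 0.40 (SE 0.20, 95% interval -0.08 to 0.88, adjusted p 0.323).

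On the wild type arrays the Snail family ratios varied less than the levels, with SDs of 0.14 for sna to wor, 0.30 for sna to esg and 0.36 for esg to wor, beside 0.40 for sna, 0.42 for wor and 0.69 for esg. The log2 ratio of sna to wor was 1.82, 1.96 and 1.98 on the Sage arrays, against 1.11, 1.16 and 1.38 on the wild type arrays, a difference of 0.70 without overlap. The ratio of sna to esg was 0.10, 0.06 and 0.13 on the Sage arrays, against -0.56, -0.01 and -0.48 on the wild type arrays, a difference of 0.45, also without overlap. An exact permutation test, two-sided, gave both ratios a p of 0.1, the least it can give here, and 0.2 when adjusted over the 4 Snail and Sox pairs examined. The ratio of esg to wor overlapped between the groups, with a difference of 0.25 (exact p 0.3). These pairs were chosen by family after the values were seen, and a ratio shows unequal change without saying which gene moved.

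The deadpan gene dpn encodes a Hes-family bHLH repressor found in nearly all neuroblasts, where it favours self-renewal. It read 7.43, 7.61 and 7.31 on the Sage arrays, against 8.03, 8.21 and 7.57 on the wild type arrays. Of the wild type values, that of array 3 alone came within the Sage range, close to its upper end. The log2 fold change was -0.49 (SE 0.18, 95% interval -0.92 to -0.05), with an unadjusted p of 0.0329 and an adjusted p of 0.187. With the replicate block, which compares samples of the same number, dpn passed at an adjusted p of 0.0469 with the same fold change. The labels do not say what samples of the same number share, so the pairing in this block is an assumption.

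**Figure D2:**
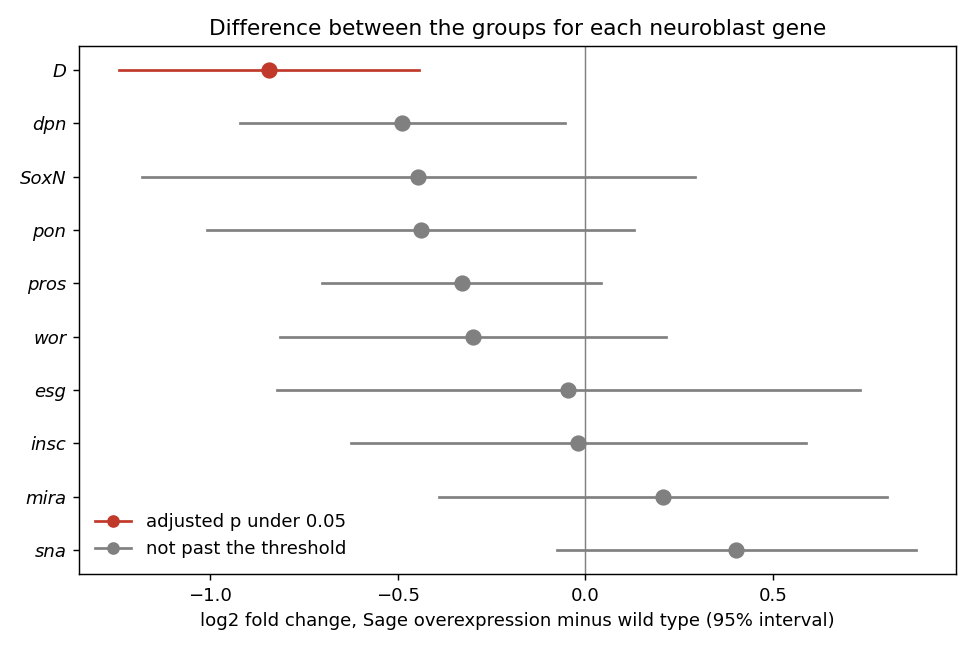
Log2 fold change of each neuroblast gene, Sage overexpression minus wild type, with its 95% interval from limma; the red gene passed an adjusted p under 0.05. D lies lowest at -0.84, the intervals of D and dpn leave out 0, and sna lies highest at 0.40.

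Of the genes of asymmetric division, insc, pon and mira encode adaptors and pros encodes the determinant that Miranda carries, and 0 of these 4 were called in either direction. The inscuteable protein, product of insc, sits at the apical side and joins the Par complex to the spindle machinery. insc read 7.91, 8.21 and 8.32 on the Sage arrays, against 8.18, 8.65 and 7.67 on the wild type arrays. The wild type values lay on both sides of the Sage values, and the log2 fold change was -0.02 (SE 0.25, 95% interval -0.62 to 0.59, adjusted p 0.978). Without wild type array 2 it was 0.22 and without wild type array 3 it was -0.27, so its sign depended on the arrays used.

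At the basal side, the adaptor encoded by pon, partner of numb, brings the Notch inhibitor Numb to the cortex. pon read 7.94, 8.10 and 7.70 on the Sage arrays, against 8.31, 8.82 and 7.92 on the wild type arrays. The Sage value was lower for each number, with log2 differences of -0.37, -0.72 and -0.22, but wild type array 3 overlapped the Sage group. The log2 fold change was -0.44 (SE 0.24, adjusted p 0.366).

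The miranda protein, product of mira, is the adaptor that carries Prospero, Brat and Staufen into the ganglion mother cell. mira read 9.44, 9.69 and 9.43 on the Sage arrays, against 9.31, 9.81 and 8.81 on the wild type arrays. Wild type array 2 was the highest and wild type array 3 the lowest of all 6 arrays, and the log2 fold change of 0.21 (SE 0.25, adjusted p 0.722) was -0.04 without wild type array 3. The prospero gene pros encodes the homeodomain factor that ends self-renewal in the ganglion mother cell. It read 9.07, 8.997 and 9.18 on the Sage arrays, against 9.71, 9.13 and 9.40 on the wild type arrays. The Sage value was lower for each number, wild type array 2 overlapped the Sage group, and the log2 fold change was -0.33 (SE 0.15, 95% interval -0.70 to 0.04, adjusted p 0.294).

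The width of these intervals came mainly from the wild type arrays. The SD over wild type arrays exceeded that over Sage arrays for 10 of 10 members, with medians of 0.14 in Sage overexpression and 0.44 in wild type. Over all probe sets the wild type SD was the greater for 64.4%, with medians of 0.12 in Sage overexpression and 0.15 in wild type. The median values of the arrays were 5.44 to 5.52, below every member value, and spread at like levels was not compared. Wild type array 2 was the lowest of its group for wor, pros, SoxN, esg and sna, and the highest for dpn, mira, insc, pon and D. That array was at an extreme of its group for 81.6% of all probe sets. The distance of wild type array 2 from the mean of wild type arrays 1 and 3 ran from -1.16 for esg to 0.75 for mira.

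The Sage array numbered 2 deviated from arrays 1 and 3 in the same direction as wild type array 2 for 10 of 10 members, by smaller amounts, from -0.20 for wor to 0.29 for pon. Over all probe sets this held for 68.1%. By the sign on the arrays numbered 2, the neuroblast genes divided into sets of 5: the Snail family, SoxN and pros on one side, and insc, pon, mira, dpn and D on the other. This division rests mainly on wild type array 2, an extreme array for most probe sets, and does not establish a grouping of the genes. On the Sage arrays the deviation was only -0.01 for SoxN, 0.09 for insc and -0.09 for esg, and Sage array 3 was the highest for insc.

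**Figure D3:**
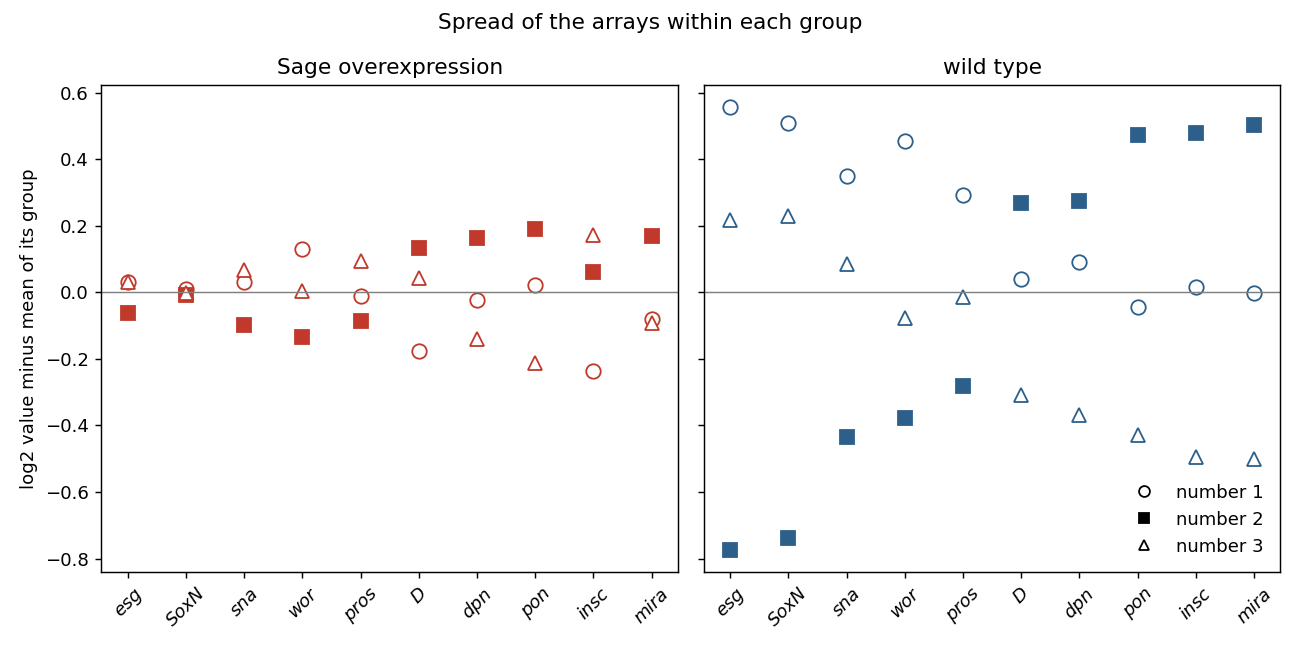
Deviation of each array from the mean of its group on the log2 scale, with Sage overexpression at the left and wild type at the right; filled squares are the arrays numbered 2, open circles and triangles numbers 1 and 3. In wild type the squares are lowest for the 5 genes at the left and highest for the 5 at the right, and the Sage arrays show smaller deviations of the same sign.

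In each list of proteins that act with the division genes or beside them in neuroblasts, 1 or 2 genes were called lower and 0 higher. These lists were chosen with earlier results of these data known, each gene is represented by its brightest probe set, and over 11983 genes 3.49% were called lower and 4.31% higher in Sage overexpression, with a median log2 fold change of -0.01. At an unadjusted p under 0.05, 13.4% of these genes were lower and 12.7% higher, and 51.1% of their differences were negative. A listed gene counts as measured if a tested probe set is paired with it alone under its annotated or current symbol. This held for 110 of 144 listed genes, and says nothing about signal from the others. Among basal determinants and adaptors 4 of 5 were measured, and 1 fell and 0 rose (unadjusted p under 0.05 for 3 lower and 0 higher), with a median of -0.41. The gene that fell was brat, which encodes a translational repressor that Miranda carries into the ganglion mother cell to stop self-renewal. brat read 7.09, 7.24 and 7.43 on the Sage arrays, against 8.27, 8.77 and 8.74 on the wild type arrays. The groups were far apart, with 2.53-fold higher brat in wild type (log2 fold change -1.34, SE 0.17, adjusted p 0.00832). brat passed under all 16 alternatives, with adjusted p-values from 0.00302 to 0.0494, which was the case for none of the 10 neuroblast genes.

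In the apical complex and spindle orientation list, 8 of 12 genes were measured, and 1 fell and 0 rose (unadjusted p under 0.05 for 4 lower and 0 higher). The median log2 fold change was -0.46, and 7 of the 8 differences were negative. The gene that fell was baz, the Par-3 scaffold that Inscuteable binds. baz read 8.03, 8.08 and 7.86 on the Sage arrays, against 8.46, 9.01 and 8.66 on the wild type arrays, a log2 fold change of -0.72 (SE 0.15, adjusted p 0.0474). Every Sage value of baz lay below every wild type value, as for 13.6% of all probe sets. The call was lost in fits lacking any Sage array or wild type array 3, with adjusted p-values reaching 0.195. It was also lost under quantile normalization (adjusted p 0.0701) and with trend and robust settings of eBayes (adjusted p 0.0589). Under the replicate block 4 genes of the list were called lower, beside 5.94% of all probe sets in that fit.

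Among cortical tumour suppressors and mitotic kinases 6 of 12 were measured, and 1 fell and 0 rose (unadjusted p under 0.05 for 2 lower and 1 higher). This was the kinase gene aurB, at 6.97, 6.92 and 6.85 on the Sage arrays, against 7.47, 8.14 and 7.62 on the wild type arrays (log2 fold change -0.83, SE 0.18, adjusted p 0.0462). Its groups were apart with Sage lower, as for 13.6% of all probe sets. The call was lost in fits lacking any Sage array or wild type array 3, with adjusted p-values reaching 0.189, and under quantile normalization (adjusted p 0.0755). Blocking on the replicate number, 2 genes of the list were lower and 1 was higher, beside 5.94% and 5.74% of all probe sets. Without wild type array 2 the count of lower genes was 3, beside 4.91% of all probe sets.

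Among temporal and further neuroblast factors, which set the order of fates that a neuroblast produces or mark subsets of them, 18 of 19 were measured, and 2 fell and 0 rose (unadjusted p under 0.05 for 5 lower and 1 higher), with a median of -0.16. pdm2, a POU-domain factor of the temporal series, read 7.02, 7.31 and 7.15 on the Sage arrays, against 8.06, 8.01 and 7.71 on the wild type arrays (log2 fold change -0.77, SE 0.13, adjusted p 0.0229). sqz, a zinc-finger factor of late neuroblasts and certain neurons, read 6.58, 6.54 and 6.39 on the Sage arrays, against 7.62, 7.20 and 7.11 on the wild type arrays (log2 fold change -0.81, SE 0.15, adjusted p 0.0311). Both were lower on every Sage array than on any wild type array, as were 13.6% of all probe sets. Omitting any Sage array ended both calls, at adjusted p-values reaching 0.114 for pdm2 and 0.149 for sqz, and pdm2 also did not pass without wild type array 1 (adjusted p 0.0676). Under the replicate block 5 factors were lower and 1 was higher, beside 5.94% and 5.74% of all probe sets. Without wild type array 2 there were 4 lower ones, beside 4.91% of all probe sets. asense (ase), a bHLH gene that marks most neuroblasts, read 6.85, 6.56 and 7.01 on the Sage arrays, against 7.45, 6.51 and 6.94 on the wild type arrays. The groups overlapped for ase (log2 fold change -0.16, SE 0.25, adjusted p 0.794), and wild type array 2 was again the lowest of its group.

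**Figure D4:**
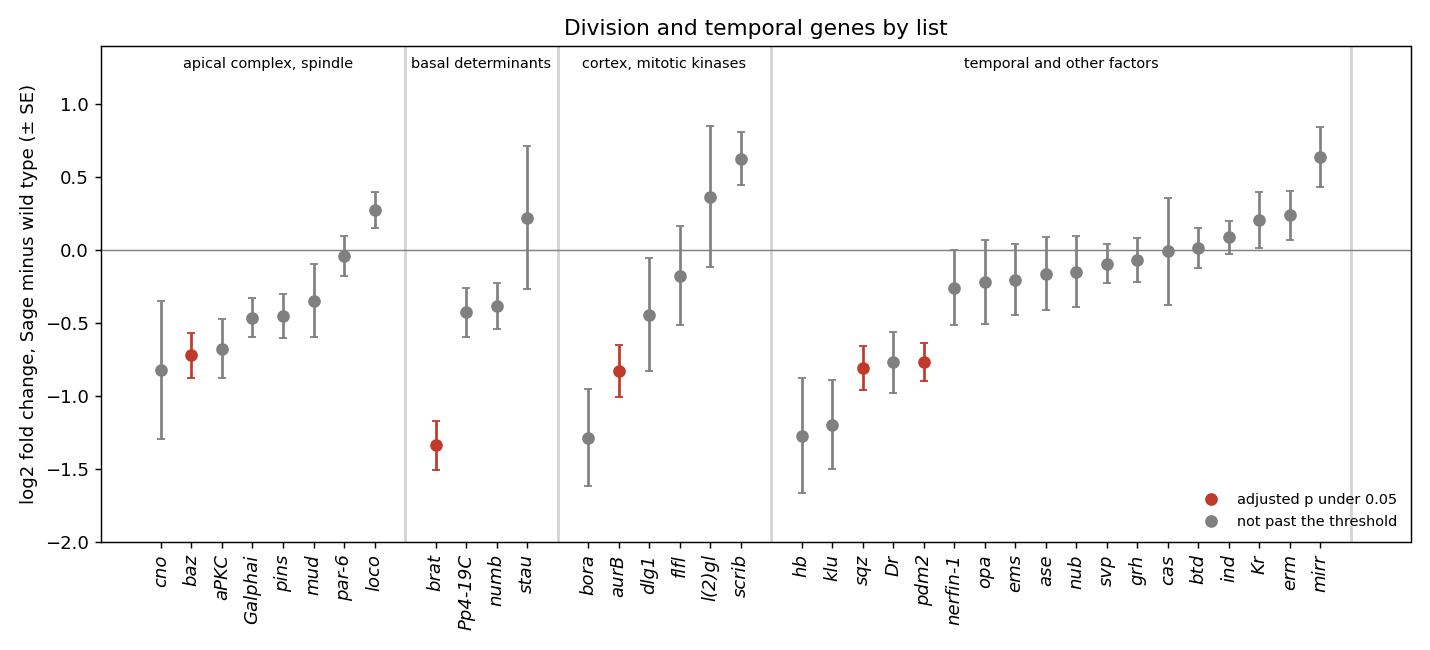
Log2 fold change ± SE, Sage overexpression minus wild type, for the measured genes of the apical, basal, cortical and temporal lists; red genes passed an adjusted p under 0.05. Each list has more genes below 0 than above it, and brat, at -1.34, lies lowest among those called.

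Upstream and downstream of neuroblasts, few calls were made. Of 8 proneural genes, whose bHLH factors select neural precursors, 0 rose and 0 fell in limma (unadjusted p under 0.05 for 1 higher and 2 lower), and the smallest p was that of ato, the proneural gene of chordotonal organs and photoreceptors, with a log2 fold change of 0.38 (adjusted p 0.102). The fit with the replicate block called 1 of them higher, ato (adjusted p 0.0494), and 1 lower, beside 5.74% and 5.94% of all probe sets. Both group means of ac, sc, l(1)sc and amos lay under 5.35, the highest group mean of the control probe sets taken to have no fly target. A change in these genes could therefore be missed. Of 5 measured Enhancer of split genes, Notch targets that repress the neural fate, 0 rose and 0 fell (unadjusted p under 0.05 for 0 higher and 1 lower). E(spl)m3-HLH had the smallest p, with a log2 fold change of -0.59 (adjusted p 0.0873), and was called lower with the replicate block (adjusted p 0.0207) and without wild type array 3.

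Among 6 measured ganglion mother cell and postmitotic factors 1 fell and 0 rose (unadjusted p under 0.05 for 1 lower and 0 higher), namely fzy, an activator of the anaphase-promoting complex that also stands in the cell cycle list. Its log2 fold change was -1.12 (SE 0.18, adjusted p 0.0189) for the brightest of its 3 probe sets. For their mean it was -0.27 and did not pass (adjusted p 0.21), and the call on the brightest was lost in fits lacking any Sage array or wild type array 3, with adjusted p-values reaching 0.0942.

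Markers of other cells of the embryo moved in different ways. Of 11 measured neuron markers 0 were called in limma (unadjusted p under 0.05 for 1 higher and 0 lower), while 10 of the 11 differences were positive, with a median of 0.27 and the smallest p for Rbp9, an ELAV-family RNA-binding protein gene (log2 fold change 0.35, adjusted p 0.13). Their summed log2 values were 84.3 to 87.6 on the Sage arrays and 79.5 to 85.8 on the wild type arrays. Of 8 measured glia markers 1 rose, the astrocyte gene alrm (log2 fold change 0.53, adjusted p 0.0279), and 1 fell, the sodium pump subunit gene nrv2 (-1.28, adjusted p 0.0101), with an unadjusted p under 0.05 for 2 higher and 1 lower. The call on alrm held only with all arrays or without wild type array 2 among the fits that left out an array (adjusted p 0.138 at most), and it was lost with trend and robust settings of eBayes (adjusted p 0.0793). The call on nrv2 was lost without Sage array 3 (adjusted p 0.0644). The summed glia values were 67.9 to 69.4 on the Sage arrays and 68.1 to 69.6 on the wild type arrays. Neuron and glia markers therefore overlapped between the groups in their sums.

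Sensory organ precursors of the peripheral nervous system also express pros. Of 6 measured precursor markers 1 rose and 0 fell, the zinc-finger gene sens, at 8.21, 8.42 and 8.28 on the Sage arrays, against 6.62, 6.19 and 6.26 on the wild type arrays (log2 fold change 1.94, SE 0.14, adjusted p 0.00108). An unadjusted p under 0.05 was found for 1 higher marker, sens, and 1 lower, neur (log2 fold change -0.65, limma adjusted p 0.0661). The differences of the rest were 0.17 for phyl, 0.14 for cpo, 0.01 for ct and -0.33 for pros. With 4 of the 6 differences positive and 2 negative, the list as a whole did not share the rise of sens. Besides its place among precursor markers, sens is a salivary gland regulator, as is sage. In which cells sens rose was not tested, so its rise cannot be assigned to sensory organ precursors. The summed precursor values were 47.7 to 49.6 on the Sage arrays and 44.5 to 50.1 on the wild type arrays.

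Cell cycle genes had lower means on the Sage arrays as well. Of 13 measured cell cycle genes 4 fell and 0 rose (unadjusted p under 0.05 for 9 lower and 0 higher), all 13 differences were negative, and the median was -0.77. The separase inhibitor gene pim changed by -2.13 on the log2 scale (adjusted p 0.0211) and the chromosomal passenger gene Incenp by -0.97 (adjusted p 0.0177), beside fzy and aurB, and the call on fzy was not made for the mean of its probe sets. Their summed log2 values were 105.9 to 107.5 on the Sage arrays and 114.7 to 119.5 on the wild type arrays, without overlap. Omitting any Sage array ended all 4 calls, with adjusted p-values reaching 0.106 for pim and 0.0877 for Incenp. In the replicate block, and also without wild type array 2, 7 were called lower, beside 5.94% and 4.91% of all probe sets in these fits. The part of dividing cells in the values of D, brat, baz and the others was not tested.

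Of 8 epidermis markers 1 rose and 0 fell, the cuticle gene TwdlT, with a log2 fold change of 2.63 (adjusted p 0.00733), with an unadjusted p under 0.05 for 4 higher and 0 lower. With the replicate block or without wild type array 2, 2 markers rose, beside 5.74% and 4.98% of all probe sets in these fits. The summed values of the 8 markers were 61.6 to 63.6 on the Sage arrays and 55.6 to 58.9 on the wild type arrays. These sums hold TwdlT, whose change was the largest of the list, beside a list median of 0.23. The other epidermis markers ran from -0.07 for grh to 0.88 for e, and sums without TwdlT were not taken. Among 5 measured germ line markers 1 fell and 0 rose (unadjusted p under 0.05 for 2 lower and 0 higher), the piRNA factor gene aub (log2 fold change -0.67, adjusted p 0.00633), with sums of 24.1 to 24.5 on the Sage arrays and 25.6 to 28.0 on the wild type arrays. For vas, osk and bam both group means lay under 5.35, the highest group mean of those control probe sets, so a change in them could be missed. Among 5 measured muscle markers 0 were called (unadjusted p under 0.05 for 0 higher and 1 lower), with the smallest p for the mesoderm gene twi, which acts beside sna in the early embryo (log2 fold change -0.40, adjusted p 0.103), and sums of 46.4 to 46.5 on the Sage arrays and 44.8 to 47.5 on the wild type arrays. Among 6 measured markers of trachea and imaginal primordia, where esg is also expressed, 0 were called and 0 had an unadjusted p under 0.05, with the smallest p for vg (log2 fold change -0.51, adjusted p 0.256) and sums of 44.1 to 46.2 on the Sage arrays and 45.5 to 47.8 on the wild type arrays. The replicate block called vg lower (adjusted p 0.0446). The part of these cells in the values of the neuroblast genes was not tested.

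**Figure D5:**
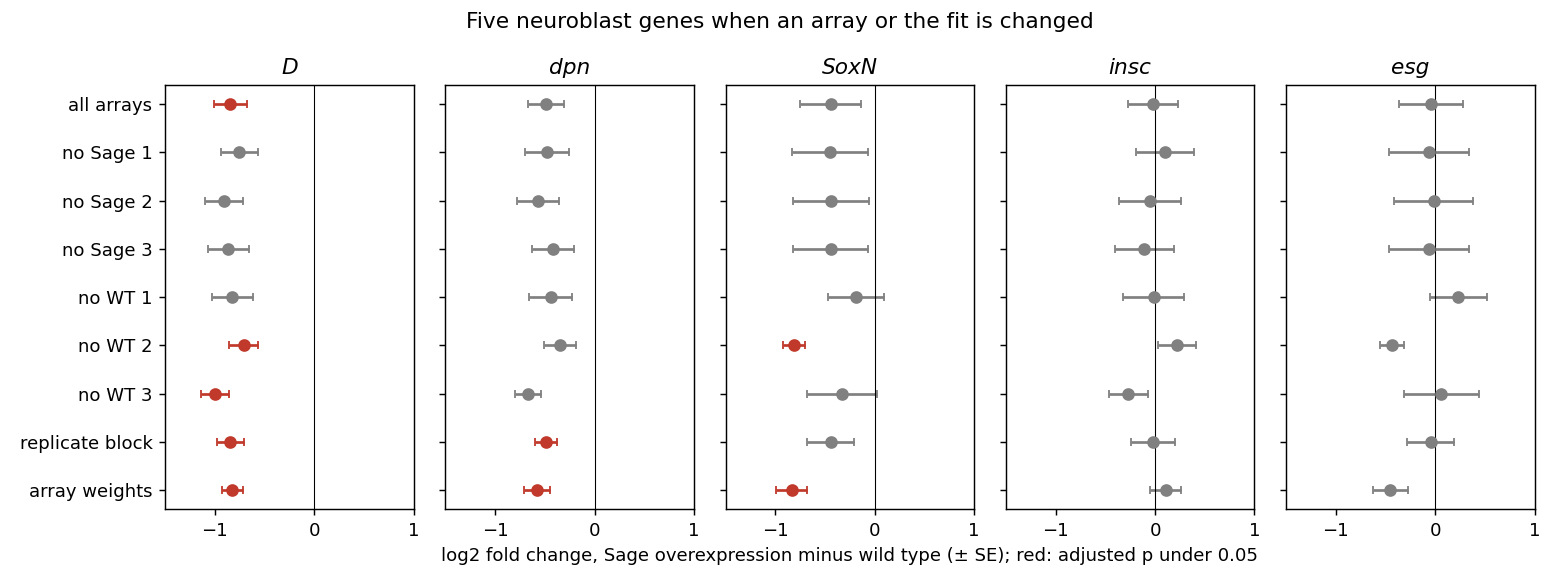
Log2 fold change ± SE, Sage overexpression minus wild type, of D, dpn, SoxN, insc and esg with all arrays, with each array left out, with the replicate block and with array weights; red marks an adjusted p under 0.05. D stays between -0.996 and -0.71 when an array is left out, SoxN reaches -0.81 without wild type array 2, and insc and esg lie on both sides of 0.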

How the data were processed

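Total RNA of whole embryos was extracted with TRIzol, cleaned on RNeasy columns and labelled with biotin by a 3′ IVT kit, per the labels' protocols, and hybridised to 6 Affymetrix arrays, 1 per sample. The authors deposited log2 values; RMA and Partek are named in the submitters' processing notes, with versions and filters not given in the sources used here. The log2 scale was inferred from the range, 2.90 to 14.6.

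Of 18952 probe sets, 183 Affymetrix controls were left out of the tests. Gene symbols came from the platform annotation, which pairs 13647 tested probe sets with 1 gene, 13544 of them matched to the Release 6 gene table by Entrez number. The deposited values were fitted with limma 3.58.1 (R 4.3.3; lmFit, eBayes, two-sided), with Benjamini-Hochberg adjustment over 18769 probe sets and a threshold of 0.05. The procedure was tested on simulated data. Members, lists and ratios were chosen with earlier results of these data known. Besides the members, up to 4 called genes per list by size are named, or the one with the smallest p. Other genes were named where their values limit how a list reads, ase as a neuroblast marker, and CG15258 and CG4161 as neighbours.

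Both groups carry replicate numbers 1 to 3. Across tested probe sets, the residuals of equally numbered samples about their group means had correlations of 0.391, 0.668 and 0.334. Each was over 0.1, so the numbers were treated as pairs in the replicate block. Unequal numbers gave -0.568 to 0.429, and the 0.429, for Sage array 1 with wild type array 3, exceeded 0.391 and 0.334. Residuals cancel out within each group, so these correlations are not independent, and passing 0.1 cannot show that the numbers are pairs. The labels do not say what equal numbers share, so calls in the replicate block rest on an assumed pairing. Figures were drawn with matplotlib 3.10.9.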

Additional observations from a re-analysis of the deposited data

How the results depend on the processing

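The log2 fold change of each of the 10 members was recomputed under 16 alternatives, of which leaving out both arrays numbered 2 was chosen after seeing the data. Of these 160 values, 152 kept their sign and 148 their side of the threshold; the cause of the other changes was not tested. Of the 10 members, 5 were called with array weights (wor, dpn, pros, SoxN and D), 2 with the replicate block (dpn and D), 2 without both arrays numbered 2 (SoxN and D), 0 at an adjusted p under 0.01, and 0 to 2 when 1 array was left out. Of 110 listed genes measured 13 were called, against 46 with array weights, 31 with the replicate block, 23 without both arrays numbered 2, 4 at an adjusted p under 0.01, and 4 to 22 when 1 array was left out. With array weights 10.6% of all probe sets were called lower and 21.2% in either direction, and with the replicate block 5.94% and 11.7%, beside 2.88% and 6.12% in the fit as reported. Without both arrays numbered 2 these shares were 4.24% and 8.98%, and at an adjusted p under 0.01 they were 0.629% and 1.86%. With 1 array left out, 0.559% to 4.91% were called lower and 1.78% to 9.89% in either direction, the most without wild type array 2. Array weights gave wild type array 2 a weight of 0.224. For insc the sign changed with quantile normalization (0.031), array weights (0.11) and without both arrays numbered 2 (0.19), and its values ran from -0.27 to 0.22 when 1 array was left out. With 1 array left out, esg ran from -0.43 to 0.23, mira from -0.043 to 0.46, ase from -0.39 to 0.080, and the difference in the SoxN to D ratio from -0.11 to 0.67. Over all probe sets, 1149 were called with all arrays and 2191 with the replicate block, and the block changed no call on a member other than dpn. The number of arrays limits the precision, and fits without 1 array have fewer samples.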
